A study of Mus musculus with 9 samples.

Results

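RNase P and RNase MRP are a pair of ribonucleoprotein enzymes whose protein subunits are encoded by Pop1, Pop4, Pop5, Pop7, Rpp14, Rpp21, Rpp25, Rpp30, Rpp38 and Rpp40, and these 10 genes, of the 47529 listed in the count files, are described here. The genes were fixed by name, and the set was chosen by the fall of Pop1 in MT in these same data. The change of Pop1 from MB to MT is therefore given as a description without a test, and the other 9 genes show how far the rest of the complex followed. RNA was sequenced from mouse tissue and primary cells of the C57BL/6 strain. GAS is the gastrocnemius, a calf muscle, taken from female mice of 8 to 12 weeks (3 replicates). MB are primary myoblasts, the proliferating muscle precursor cells, kept in growth medium (2 replicates), and MT are the myotubes obtained from MB after 3 days in differentiation medium (2 replicates). The treated MB received sodium-L-lactate at 10 mM, added in PBS (2 replicates), and the control MB, which also served as the reference for MT, received PBS alone. The lactate exposure time before RNA collection is not given in the sources used here, nor is whether the cultures came from separate animals, so p-values measure the spread between these libraries only.

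RNase P removes the 5′ leader from precursor tRNAs, a step that every tRNA with such a leader needs before it can serve in translation. RNase MRP cuts the precursor of ribosomal RNA within an internal transcribed spacer. Each enzyme is built around a catalytic RNA of its own, encoded by Rpph1 and Rmrp, and most of the proteins are common to both. Pop1 is the large scaffold protein, Pop7 pairs with Rpp25 or with its paralog Rpp25l, Rpp38 belongs to a family of proteins that bind kinked RNA turns, and Rpp21 belongs to RNase P. Muscle cells leave the cell cycle as they differentiate, and fast growing cells in general make more ribosomes and tRNAs than resting cells.

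Reads counted on genes numbered 19307793 to 19941574 per GAS library and 5198247 to 10839516 per library of cultured cells. The labels were checked against marker genes. All 5 markers of differentiated muscle (Myog, Mymk, Myh3, Acta1, Ckm) were higher in MT, and their summed level was 89.4 to 194 CPM (counts scaled to library size, TMM-normalized) in MB against 9690 to 11700 CPM in MT. Of the 4 myoblast markers, Pax7 fell in MT (log2FC -4.11 ± 0.65 SE, edgeR quasi-likelihood adjusted p = 0.00224), Myod1 (-1.93 ± 0.61 SE) and Myf5 (-0.999 ± 0.60 SE) did not pass, and Des, which differentiated muscle also expresses, had 2.05 ± 0.74 SE and did not pass either. Their summed level was 981 to 1990 CPM in MB and 1530 to 3290 CPM in MT, so this list as a sum did not mark MB. The 4 fibroblast markers together stood at 234 to 473 CPM in MB and at 14600 to 24000 CPM in MT. Col1a1, Dcn and Col3a1 were higher in MT, while Pdgfra did not pass (log2FC 1.46 ± 0.86 SE). Of the 7 genes of cycling cells, 6 were called lower in MT, beside 6.86% of all genes tested. The median log2FC of these 7 was -2.61, and -2.17 without MT replicate 1. MT replicate 1 stood apart, with counts on 28599 genes against 15548 to 17965 in the other 5 libraries of cultured cells. It held 60 counts of Ptprc, the leukocyte common antigen, and 64 of Cdh5, the endothelial cadherin, where MT replicate 2 and all MB libraries had 0. The part that these differences play in the results below was not tested, so the log2FC of each subunit gene is also given without MT replicate 1.

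The levels of the 10 genes were compared within each group per length, as RPKM (TMM-normalized CPM divided by the exonic length in kb). In control MB, Pop4 was highest at 37.7 ± 4.69 RPKM (SD, n = 2) and Pop7 was next at 34.1 ± 2.63 RPKM. Their ranges overlapped, and both lay above Rpp21 at 26.6 ± 3.35 RPKM. Rpp38 (20.0 ± 12.3 RPKM), Rpp30 (18.3 ± 14.6 RPKM), Pop5 (13.0 ± 3.00 RPKM) and Pop1 (12.0 ± 0.934 RPKM) followed, and from Rpp21 down to Pop1 no neighbours differed beyond their ranges. Rpp14 stood at 9.76 ± 2.03 RPKM and Rpp40 at 3.73 ± 0.206 RPKM. Leaving aside Rpp25, the highest gene exceeded the lowest 10.1-fold. Pop4 was above 85.0% of the 10484 genes with a mean over 1 RPKM in MB, and Rpp40 above 31.8% of them.

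**Figure D1:**
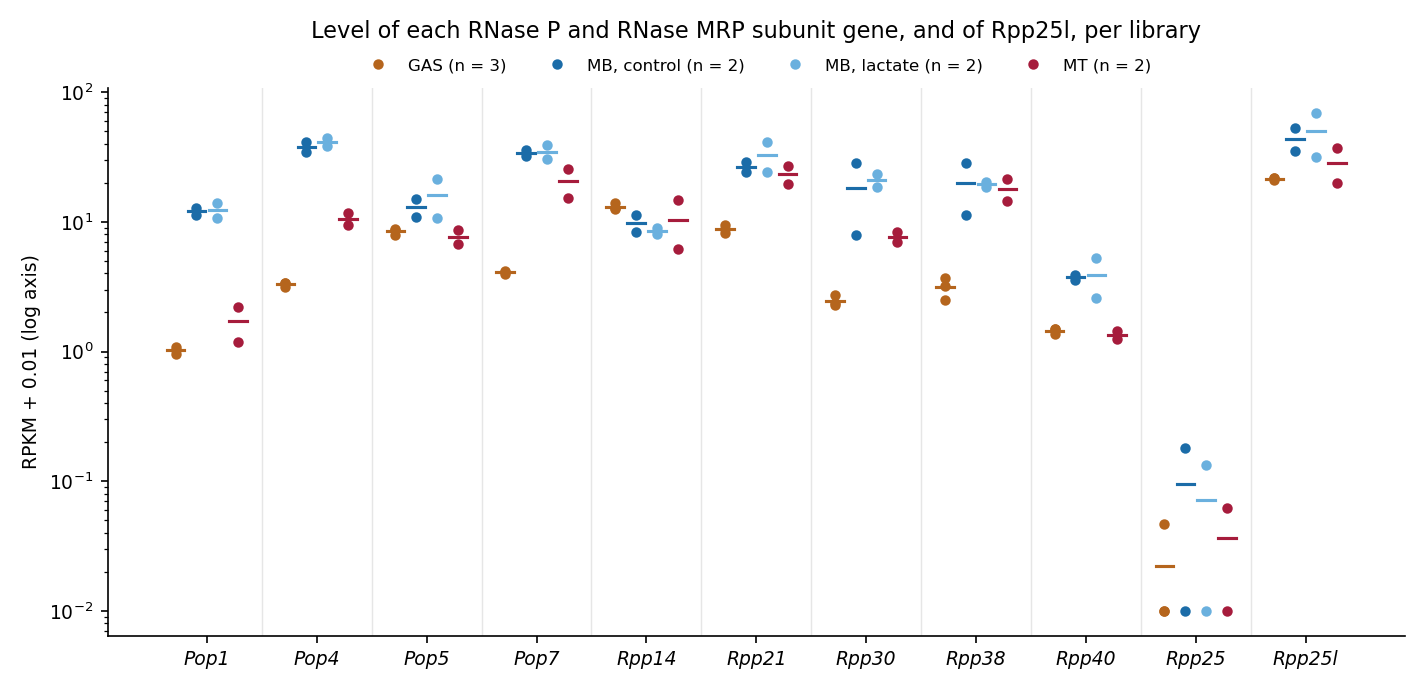
RPKM plus 0.01 on a log axis for the 10 subunit genes and Rpp25l, with a point per library and a bar at the group mean, for GAS (n = 3), control MB (n = 2), lactate-treated MB (n = 2) and MT (n = 2). Pop1, Pop4, Pop5, Pop7 and Rpp40 sit lower in both MT libraries than in both control MB libraries, and Rpp25 holds 2 counts or fewer everywhere. GAS was sequenced with another protocol, so its points are not to be read against the others.

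Rpp25 was the exception in every group. This gene (chr9:57504026-57505448 on mm10, plus strand, a protein-coding gene with a single annotated transcript) had 0, 0 and 1 counts in GAS, 0 and 2 in control MB, 1 and 0 in lactate-treated MB and 1 and 0 in MT. All 9 values are at or below 3 counts, so no fold change is given and Rpp25 did not enter the tests. Its paralog Rpp25l (chr4:41712033-41713534, minus strand), which encodes an alternative partner of the Pop7 protein, had 357, 368 and 359 counts in GAS, 367 and 251 in control MB, 336 and 153 in lactate-treated MB and 228 and 248 in MT. Per length, Rpp25l was at least 84.8-fold above the level that 3 counts of Rpp25 would give in the same library, and this bound was 198-fold to 204-fold in GAS. The longest run of identical bases between their annotated transcripts was 10. The bases upstream of the annotated start of each gene are shown for this pair, because the genes share a protein family and differ in whether their counts exceed the detection limit. They are from RefSeq (GRCm38.p6) on the strand of the gene, with capitals at the GC box, searched as GGGCGG on both strands (CCGCCC where it lies on the other strand):
Rpp25 (chr9:57503852-57504025, plus strand): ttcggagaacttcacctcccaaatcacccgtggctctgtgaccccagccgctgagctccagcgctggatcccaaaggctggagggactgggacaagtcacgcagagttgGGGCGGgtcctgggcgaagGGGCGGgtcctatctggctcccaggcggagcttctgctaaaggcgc
Rpp25l (chr4:41713535-41713767, minus strand): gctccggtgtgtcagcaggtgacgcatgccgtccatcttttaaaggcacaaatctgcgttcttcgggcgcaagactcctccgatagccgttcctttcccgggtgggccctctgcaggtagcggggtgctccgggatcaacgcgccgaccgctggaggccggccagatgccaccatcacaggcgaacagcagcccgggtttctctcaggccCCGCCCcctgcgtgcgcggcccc
Rpp25, at or below 3 counts in every library, held 2 GC boxes, and Rpp25l held 1. In the 250 bases upstream of the RefSeq start, Rpp25 had 14 CpG dinucleotides and 62.4% G and C, and Rpp25l had 27 and 68.0%, against medians of 6 and 52.4% over 32851 promoters. A GC box was found in 32.74% of all these windows and in 5 of the 9 windows read for these genes, which are those of 8 of the 10 subunit genes and of Rpp25l. The E-box CACGTG, which MYC and MAX bind, was in none of the 9 windows and in 6.02% of all. Of the other motifs searched on both strands, CCAAT was in 1 of the 9 (Pop4) and in 33.85% of all, and neither the ETS motif CCGGAAG (6.91% of all) nor the E2F motifs TTTCCCGC (0.89%) and TTTGGCGC (0.42%) was in any. These matches describe letters in the windows and not binding.

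The first comparison asked how the subunit genes stood in MT relative to MB, as part of the study's comparison of gene expression across the transition to myotubes. Pop1 and Pop4 were lower in MT, Rpp40 and Rpp30 had negative log2FC values that did not pass the test, and Rpp14, Rpp21 and Rpp38 were close to 0 with wide intervals. Pop1, the scaffold protein gene (chr15:34495304-34530648, plus strand), had 393 and 358 counts in MB and 60 and 66 in MT. On the CPM scale these were 48.2 and 43.2 in MB against 4.47 and 8.39 in MT, so both MT libraries lay far below both MB libraries. Its log2FC was -2.86 ± 0.54 SE, 7.26-fold lower, and without MT replicate 1 it was -2.51 ± 0.91 SE. This is the value by which the set was selected, and no test of it is given. Since the libraries are bulk RNA, a smaller share of cells with the transcript and less of it per cell cannot be told apart.

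Pop4 encodes a subunit shared by both enzymes that contacts the RNA (chr7:38261996-38271423, minus strand). It had 97.8 and 116.7 CPM in MB and 26.8 and 33.3 CPM in MT, with no overlap between the groups. It fell 3.57-fold (log2FC -1.84 ± 0.43 SE, 95% interval -2.78 to -0.89, edgeR quasi-likelihood adjusted p = 0.0148). Without MT replicate 1 the log2FC was -1.74 ± 0.82 SE and the adjusted p of the same edgeR test was 0.200, so the call of Pop4 was lost without that library. In that fit the lone MT library is assumed to vary as the MB libraries did. A stretch of 12 bases of its exons, 0.40% of their length, overlaps the antisense gene Gm44767.

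Rpp40 (chr13:35893472-35906359, minus strand) encodes a further shared protein. It had 23.4 and 25.3 CPM in MB and 8.04 and 9.41 CPM in MT, again without overlap. The log2FC was -1.48 ± 0.52 SE (95% interval -2.62 to -0.34) and missed the threshold with an edgeR adjusted p of 0.0712. DESeq2 (adjusted p = 0.0404) and the likelihood ratio test of edgeR (adjusted p = 0.0360) placed it past the threshold. Without MT replicate 1 the log2FC of Rpp40 was -1.43 ± 0.90 SE, with a quasi-likelihood adjusted p in edgeR of 0.411.

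Rpp30 (chr19:36083716-36104777, plus strand) encodes a subunit found in both enzymes, and its MB libraries disagreed. It had 33.3 CPM in MB replicate 1 and 119.4 CPM in MB replicate 2, against 34.9 and 29.0 CPM in MT. MT therefore matched the lower MB library and lay well below the higher. The log2FC was -1.20 ± 0.57 SE (95% interval -2.46 to 0.05, edgeR adjusted p = 0.170). Without MB replicate 1 it was -1.94 and without MB replicate 2 it was -0.22, so the value of this gene depended on the MB library used. Without MT replicate 1 it was -1.41 ± 0.82 SE. Rpp38 (chr2:3328949-3332643, minus strand), which encodes the kink-turn binding subunit, showed the same disagreement, with 11.8 and 29.9 CPM in MB and 15.0 and 22.3 CPM in MT. Both MT values lay between the MB values, and the log2FC was -0.14 ± 0.56 SE (95% interval -1.37 to 1.09), turning to 0.07 without MT replicate 1.

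Pop5 (chr5:115235836-115245351, plus strand) and Pop7 (chr5:137501438-137502518, minus strand) encode smaller subunits, the latter the partner of Rpp25 and Rpp25l. Pop5 had 34.7 and 24.9 CPM in MB and 15.5 and 19.7 CPM in MT. Pop7 had 38.8 and 34.8 CPM in MB and 16.5 and 27.9 CPM in MT. For both genes the MT values were below the MB values, yet the log2FC of -0.78 ± 0.50 SE for Pop5 and of -0.76 ± 0.48 SE for Pop7 did not pass (edgeR adjusted p = 0.306 and 0.307). Without MT replicate 1 these were -0.68 ± 0.84 SE for Pop5 and -0.47 ± 0.81 SE for Pop7. Rpp25l behaved in the same range, with 45.0 and 30.2 CPM in MB, 17.0 and 31.5 CPM in MT and a log2FC of -0.67 ± 0.51 SE (edgeR adjusted p = 0.394), and its groups overlapped. The log2FC of Rpp25l without MT replicate 1 was -0.34 ± 0.80 SE.

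Rpp21, the RNase P protein gene (chr17:36255645-36258069, minus strand), had 29.5 and 35.3 CPM in MB and 23.8 and 32.8 CPM in MT. Rpp14 (chr14:8080367-8091834, plus strand), whose transcript also encodes an enzyme of mitochondrial fatty acid synthesis, had 20.0 and 26.9 CPM in MB and 14.7 and 35.1 CPM in MT. The groups overlapped for both genes. The log2FC was -0.20 ± 0.46 SE for Rpp21 (95% interval -1.22 to 0.82, edgeR adjusted p = 0.802) and 0.07 ± 0.53 SE for Rpp14 (95% interval -1.11 to 1.24, edgeR adjusted p = 0.948). Leaving out MT replicate 1, they were -0.04 ± 0.80 SE for Rpp21 and 0.53 ± 0.79 SE for Rpp14. The intervals with all 4 libraries still hold changes of more than 1 on the log2 scale in at least 1 direction, so the data do not show that these genes kept their level.

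**Figure D2:**
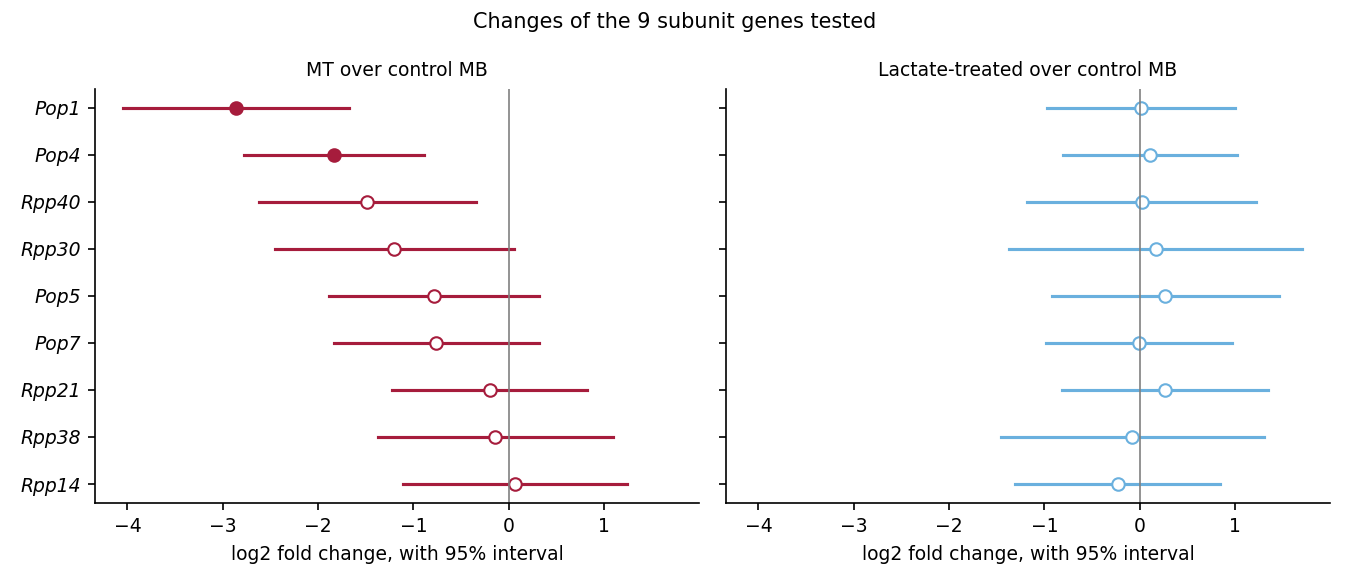
Log2 fold change with its 95% interval for the 9 subunit genes tested, MT over control MB on the left and lactate-treated over control MB on the right, from edgeR with 2 libraries per group and the same controls in both. Filled points passed the threshold of their comparison. The fill and interval of Pop1 in MT are not a test, since that value chose the set. Pop1, which chose the set, stands at -2.86 in MT and Pop4 at -1.84, the other 7 range from -1.48 to 0.07, and all lactate values lie between -0.23 and 0.27.

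Of the 8 subunit genes tested besides Pop1, 1 was called lower in MT (Pop4) and 0 higher, at an adjusted p under 0.05 and an absolute log2FC over 0.5. By the same rule 6.86% of the 12921 genes tested were lower and 11.0% were higher. At an unadjusted p under 0.05 in edgeR, Pop4 and Rpp40 were lower, where 4197 of the 12921 genes tested passed in either direction. DESeq2 with adjustment called these 2 lower and 0 higher, where it called 10.0% of all genes lower and 13.4% higher. Without MT replicate 1 none of the 8 was called, beside 2.06% of 13102 genes called lower and 7.34% called higher. The median log2FC of the 8 genes was -0.77 and that of all genes tested was 0.07. A negative value was found for 7 of the 8, where 47.7% of all genes tested had one. With Pop1 included, 5 of the 9 genes tested had both MT libraries below both MB libraries, where 29.2% of all genes did, and 0 had them above, where 32.9% did. Pop1 is among those 5 by choice.

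The share of Pop1 within the set was computed in every library, since a ratio inside a library does not depend on the scaling between libraries. Its fall in MT follows in part from the choice of Pop1 and is a description only. Log2 of the Pop1 RPKM over the median RPKM of the other 9 genes was 0.17 and -1.33 in control MB, -0.91 and -0.41 in lactate-treated MB, -2.82 and -2.40 in MT and -1.94, -1.65 and -1.74 in GAS. Both MT values were below all values in MB, with or without lactate. The mean difference of MT from MB was -2.03 on the log2 scale, and it was -2.13 when the geometric mean of the 8 other genes with counts replaced the median. It was -1.28 without MB replicate 1 and -2.78 without MB replicate 2. The control MB libraries differed by more than 1 on this scale, and the library with the higher ratio, MB replicate 1, is the one with low Rpp30 and Rpp38. Pop1 made up 8.27% and 5.77% of the summed RPKM of the 10 genes in control MB and 1.43% and 1.85% in MT, and Pop4 made up 22.4% and 20.8% in control MB and 11.4% and 9.79% in MT. The summed RPKM itself was 153.5 and 196.9 in control MB and 82.3 and 119.6 in MT.

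**Figure D3:**
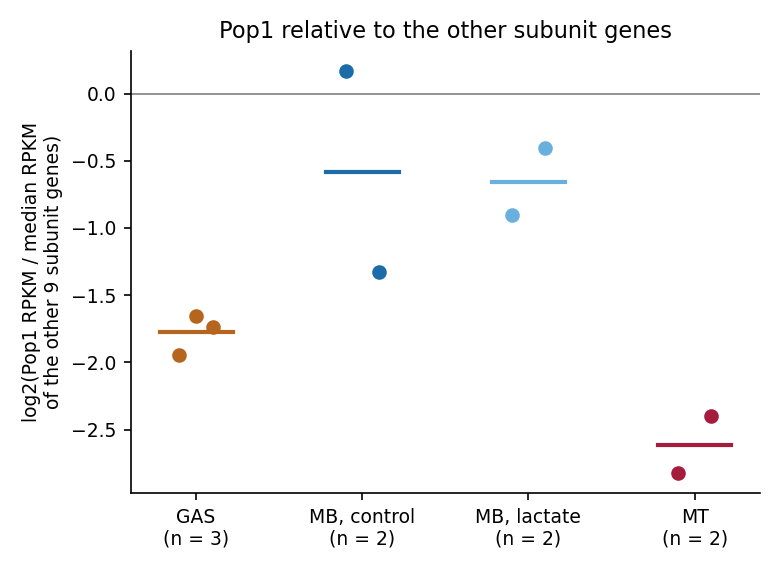
Log2 of the Pop1 RPKM over the median RPKM of the other 9 subunit genes, with a point per library and a bar at the group mean, for GAS (n = 3), control MB (n = 2), lactate-treated MB (n = 2) and MT (n = 2). The MT points at -2.82 and -2.40 are the lowest of the cultured cells, and the control MB points are far apart at 0.17 and -1.33.

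In MT the order by level was headed by Rpp21 (23.3 ± 5.22 RPKM, SD, n = 2), Pop7 (20.5 ± 7.46 RPKM) and Rpp38 (17.9 ± 4.90 RPKM), whose ranges overlapped. Pop4, first in MB, stood at 10.6 ± 1.62 RPKM beside Rpp14 (10.4 ± 6.00 RPKM), Pop5 (7.67 ± 1.30 RPKM) and Rpp30 (7.64 ± 0.990 RPKM). Pop1 (1.69 ± 0.732 RPKM) and Rpp40 (1.33 ± 0.148 RPKM) were the lowest of the genes with counts and overlapped each other. Pop1 was above 62.7% of the 10484 genes over 1 RPKM in MB and above 18.0% of the 13179 such genes in MT.

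Among 4464 genes of like mean level, the profiles nearest to that of Pop1 over the 6 libraries of cultured cells were those of Foxl1, Mfsd2a and Pole, at Euclidean distances of 0.232, 0.277 and 0.293 between mean-centred log2(CPM + 1) values. Pole, the catalytic subunit of DNA polymerase epsilon, had 70.8 and 53.9 CPM in control MB, 53.8 and 68.3 CPM in lactate-treated MB and 7.52 and 10.9 CPM in MT. Foxl1, a forkhead transcription factor gene, had 24.4 and 23.6 CPM in control MB and 23.0 and 26.5 CPM with lactate, and its log2FC in MT was -2.89 ± 0.59 SE. Mfsd2a, a lysophospholipid transporter gene, had 32.7 and 26.6 CPM in control MB and 2.90 and 6.36 CPM in MT. The nearest subunit gene in this group was Rpp40 at a distance of 1.88, in place 451. Pop4 and Rpp30 were outside the range of mean level used. The 6 libraries share their protocol and include the step from MB to MT by which Pop1 was chosen.

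The catalytic RNAs carry no poly(A) tail, whereas both library protocols start from poly(A) tails, and their counts were low. Rpph1, the RNA of RNase P (chr14:50807449-50807767, minus strand), had 66 and 69 counts in control MB, 163 and 61 in lactate-treated MB, 4 and 8 in MT and 4, 2 and 0 in GAS. Both MT libraries were below both MB libraries, and the log2FC was -3.71 ± 0.89 SE (edgeR adjusted p = 0.0166), or -3.06 ± 1.18 SE with an edgeR adjusted p of 0.0868 without MT replicate 1. Of its 319 bases, 73.0% lie within an exon of Ccnb1ip1 on the same strand, so these counts cannot be assigned to Rpph1 with certainty. Rmrp had 1 count in GAS replicate 1 and 0 in the other 8 libraries, and since its whole length is covered by a second annotated model, these counts cannot be read as its level.

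Gene lists from neighbouring steps of RNA processing were read in the same fit. The mitochondrial RNase P, a protein-only enzyme of Trmt10c, Hsd17b10 and Prorp, had 0 of 3 genes called and log2FC values from -0.41 to -0.21. Of 14 other genes of precursor tRNA processing, 0 were called, with a median log2FC of -0.54. The lowest were Tsen54, of the splicing endonuclease (-1.51 ± 0.52 SE), and Elac2, which trims the 3′ end (-1.39 ± 0.45 SE), and the highest were Elac1 (1.02 ± 0.60 SE) and Zbtb8os (0.89 ± 0.56 SE). The edgeR adjusted p of Elac2 was 0.0582.

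The counts called in these lists are to be read beside the 6.86% of all genes called lower and the 11.0% called higher. RNA polymerase III transcribes the tRNA genes and the RNAs of both enzymes, and of 23 genes for its subunits and factors 1 was called lower and 1 higher, with a median log2FC of -0.70. Polr1c, a subunit shared with RNA polymerase I, fell (log2FC -1.79 ± 0.47 SE, edgeR adjusted p = 0.0246). Polr3gl, the paralog of Polr3g, had 6.26 ± 0.504 CPM in MB (SD, n = 2) and 27.9 ± 7.87 CPM in MT and rose (log2FC 2.17 ± 0.56 SE, edgeR adjusted p = 0.0227), while Polr3g had 27.8 ± 22.4 CPM in MB and 8.79 ± 3.26 CPM in MT and did not pass (log2FC -1.58 ± 0.66 SE, edgeR adjusted p = 0.126). Bdp1, of the initiation factor TFIIIB, had a log2FC of 0.46 ± 0.70 SE.

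Of 13 genes of the RNA exosome, the 3′ to 5′ RNA degradation complex, 2 were called lower and 0 higher, with a median log2FC of -0.89. These were Exosc2 (-2.25 ± 0.46 SE, edgeR adjusted p = 0.00785) and Exosc8 (-1.66 ± 0.49 SE, edgeR adjusted p = 0.0406), while C1d (0.73 ± 0.66 SE) and Exosc9 (0.17 ± 0.54 SE) had the highest values. Of the 8 core proteins of box C/D and H/ACA particles, which guide the modification of ribosomal RNA, 6 were called lower and 0 higher, with a median log2FC of -2.18. Gar1 (-2.80 ± 0.52 SE) and the methyltransferase gene Fbl (-2.53 ± 0.51 SE) had the lowest values, Snu13 fell by less (-1.81 ± 0.47 SE), and Nop10 had -0.12 ± 0.46 SE. The Pop1 value of -2.86 chose the set, so its place beside these lists is a description only. It was below that of Gar1 and within the range of the genes of cycling cells. The lowest of the cycling genes were the replication factor gene Mcm5 (-3.33 ± 0.57 SE) and the cyclin gene Ccnb1 (-2.92 ± 0.55 SE). The 8 other subunit genes, at a median of -0.77, had a median nearer to those of the polymerase III and exosome lists. Without MT replicate 1, 1 of the 8 particle proteins (Gar1) and 0 genes of the exosome and polymerase III lists were called, with medians of -1.91, -0.81 and -0.45. No test of the difference between lists was made, and the part that the loss of cycling cells plays in the subunit values was not tested.

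**Figure D4:**
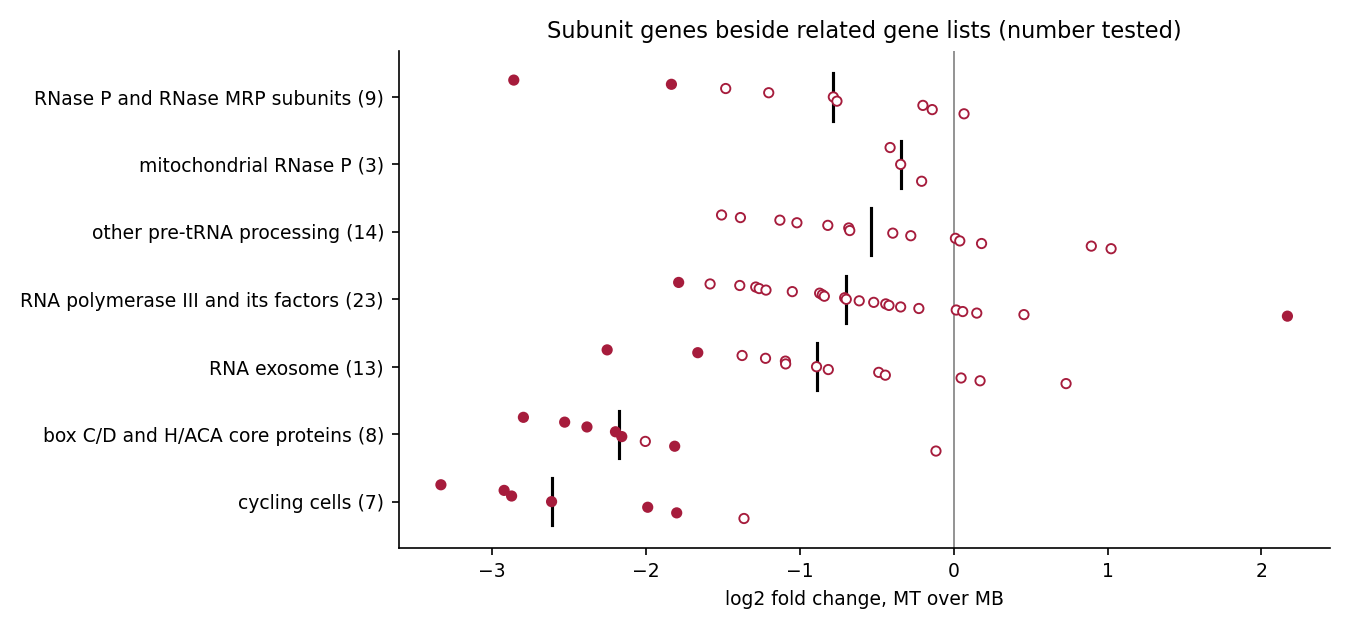
Log2 fold change of MT over MB for every gene tested in 7 lists, with the number tested in brackets; filled points passed an adjusted p under 0.05 and an absolute log2FC over 0.5, and black bars mark the list medians. The subunit genes spread from -2.86 (Pop1) to 0.07 around a median of -0.78, while 6 of the 8 core proteins of box C/D and H/ACA particles are filled and lie from -2.80 to -1.81. The fill of Pop1 is not a test, since its value chose the set.

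The second comparison asked whether lactate altered these genes in MB, in the study's experiment on lactate and myogenic differentiation. A change was not detected at this depth, with 2 libraries per group and no block for the replicate number. Over all genes, the estimated coefficient of variation between replicates was 0.455 in this fit and 0.2245 with such a block. The SE and intervals below may therefore be wider than those of a blocked fit. With the block, 0 subunit genes had an unadjusted p under 0.05 in edgeR. Of the 9 subunit genes tested, 0 were called lower and 0 higher at an unadjusted p under 0.01 and an absolute log2FC over 0.5, and 0 had an unadjusted p under 0.05 in edgeR or in DESeq2. In the whole fit the same rule called 0% of 11804 genes in either direction in edgeR, where 5 genes had a p under 0.05, and 1 gene higher in DESeq2. These counts over all genes changed with the control libraries: without MB replicate 2, 1 gene was called lower and 176 higher, and without MB replicate 1, 0 lower and 19 higher, while 0 subunit genes were called in either fit. The control libraries are those used for MT, so these values and the MT values are not independent. The study, using edgeR with the same thresholds, reports a small group of genes changed in each direction. The whole fit above did not return such a group, and the cause of the difference was not tested.

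Pop1 had 48.2 and 43.2 CPM in control MB and 40.9 and 53.2 CPM with lactate. The treated values enclosed the control values, and the log2FC was 0.01 ± 0.41 SE (95% interval -0.97 to 1.00, edgeR adjusted p = 1.0). Pop4 had 97.8 and 116.7 CPM in control MB and 110.0 and 126.4 CPM with lactate, with a log2FC of 0.11 ± 0.38 SE (95% interval -0.80 to 1.02). Rpp40 had 23.4 and 25.3 CPM in control MB and 34.3 and 16.7 CPM with lactate, with a log2FC of 0.02 ± 0.49 SE (95% interval -1.18 to 1.22). The lower ends of these 3 intervals lie above the log2FC that Pop4 had in MT. The intervals of Pop4 and Rpp40 hold changes of more than 1 on the log2 scale, and that of Pop1 reaches 1.00.

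The other 6 tested genes had log2FC values between -0.23 (Rpp14) and 0.27 (Pop5), and the groups overlapped for all 9, where 6.84% of all genes tested had both treated libraries below both controls and 4.28% had both above. Pop5 had 49.4 and 24.7 CPM with lactate and Rpp21 had 50.4 and 29.7 CPM, so that the treated libraries differed from each other more than the control libraries did. Rpp30 (77.6 and 97.6 CPM) and Rpp38 (21.1 and 19.4 CPM) lay between their control values, and Rpp14 had 19.5 and 21.3 CPM and Pop7 42.2 and 32.9 CPM. The widest interval was that of Rpp30, from -1.37 to 1.71. Rpp25l had 59.0 and 27.2 CPM with lactate (log2FC 0.15 ± 0.51 SE). Rpph1 had the largest value of these genes, 1.22 ± 0.59 SE (95% interval -0.22 to 2.65, edgeR adjusted p = 1.0), and it was replicate 1 that stood high. The order of levels with lactate was that of control MB except that Rpp30 and Rpp38 exchanged places, and their ranges overlapped in both groups.

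The third question was the level of the subunit genes in whole muscle. Libraries of GAS were made by poly(A) selection and those of MB and MT by Smart-seq2 from a small RNA input, so GAS levels are described on their own and were not tested against MB or MT. Rpp14 was the highest subunit gene in GAS, with 14.0, 12.6 and 12.7 RPKM (13.1 ± 0.771 RPKM, SD, n = 3). It stood above Rpp21 (8.83 ± 0.598 RPKM) and Pop5 (8.44 ± 0.445 RPKM), whose ranges overlapped. Pop7 followed at 4.08 ± 0.0917 RPKM, above Pop4 (3.30 ± 0.122 RPKM), Rpp38 (3.11 ± 0.592 RPKM) and Rpp30 (2.44 ± 0.221 RPKM), of which neighbours overlapped. Rpp40 stood at 1.44 ± 0.0721 RPKM. Pop1 was the lowest gene apart from Rpp25, with 0.950, 1.07 and 1.01 RPKM (1.01 ± 0.0587 RPKM), and below Rpp40 in all 3 libraries.

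The highest of these 9 genes exceeded the lowest 13.0-fold in GAS, and their coefficients of variation over the 3 replicates ran from 2.25% to 19.1%. Rpp14 was above 77.2% of the 9874 genes with a mean over 1 RPKM, Rpp21 above 68.9% and Pop5 above 67.7%, while Pop4 was above 38.6% and Pop1 above 0.284%, just inside that limit. The median of the 9 was 3.30 RPKM, against a median of 4.61 RPKM for the 9874 genes. The order depends on the length used. With the longest transcript in place of all exons, Rpp21 (14.8 RPKM) came before Rpp14, Rpp30 rose from 2.44 to 5.46 RPKM, and Pop1 and Rpp40 were still the lowest pair, at 1.13 and 2.15 RPKM. Rpp14 and Pop1 thus held opposite ends of the order in GAS by exonic length, whereas in control MB Pop1 (12.0 RPKM) and Rpp14 (9.76 RPKM) were neighbours.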

How the data were processed

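Gene expression was measured by RNA sequencing in 9 libraries. The authors trimmed the reads with Trim Galore 0.6.6, aligned them to mm10 with HISAT2 2.2.1 and counted them with featureCounts of Subread 2.0.1, and deposited raw counts per gene. The annotation release and the handling of strand and of multiply aligned reads are not given in the sources used here. Symbols, exonic lengths and coordinates were taken from GENCODE M21 on the same assembly. Of 38293 genes listed for GAS and 46078 for cultured cells, 36345 and 45143 matched.

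Each comparison was fitted with edgeR 4.0.16 in R 4.3.3 (filterByExpr, TMM, quasi-likelihood test, Benjamini-Hochberg adjustment over all genes tested) on the 4 libraries compared, without a block. SE is the log2FC divided by the square root of F. Thresholds were an adjusted p under 0.05 for MT and an unadjusted p under 0.01 for lactate, with an absolute log2FC over 0.5. The lactate rule is from the study's methods. The MT rule follows a figure legend of the study, which states the limit of 0.05 with changes of a histone mark. TMM was computed for GAS and for cultured cells separately. A count of 3, the detection limit used, covers counting error only. Replicates of each group differed beyond counting noise. The scripts were tested on simulated data. The members and lists were chosen with earlier results of these data known. Named were all members, Rpph1, Rmrp, Rpp25l, of each further list at most 4 genes (the 2 lowest and 2 highest log2FC in MT), and the 3 genes nearest to Pop1. Marker genes were named for the check of labels, Ptprc and Cdh5 after their values were seen. Alternatives were RLE size factors, DESeq2 1.42.0, the likelihood ratio test, other filters and thresholds, a fit of all 6 cultured libraries together, a replicate block, no ribosomal RNA genes or Gm26917, other lengths and each replicate left out. A fit with crossed replicate numbers was added after seeing the data.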

Additional observations from a re-analysis of the deposited data

How the results depend on the processing

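Besides Pop1, the number of subunit genes called lower in MT was 1 in edgeR and 2 with DESeq2 and with the likelihood ratio test, and it was 0 to 3 when each replicate was left out. Over all 12921 genes tested, the same rule called 887 lower in edgeR, 1292 with DESeq2 and 1343 with the likelihood ratio test. The step from 1 to 2 subunit genes thus came with more calls over all genes. The fits without a replicate also differed in their calls over all genes. How their subunit counts relate to those calls was not tested. With the median RPKM of the 9 genes in GAS, the longest transcript gave 4.46 in place of 3.30. None of the lactate counts changed from 0, and the count of genes higher in MT stayed at 0, under any alternative run. The log2FC of Pop1 in MT ran from -3.45 to -2.51 with each replicate left out. The numbers shared by libraries were not taken as pairs: deviations of same-numbered libraries correlated at r = -0.1321 for MT and MB and at 0.7023 for lactate, across genes, which are not independent. With the replicate block, 1 subunit gene besides Pop1 was called lower in MT, as without it, Rpp14 in MT turned to -0.024, and with lactate Rpp38 turned to 0.057 and Rpp40 to -0.047. The block changed no call of these genes, and over all genes it called 824 lower and 1447 higher in MT, and 6 and 7 with lactate. With crossed numbers 867 were lower and 1192 higher, and Rpp14 in MT had -0.026. In the lactate comparison, Pop7 was 0.049 with RLE size factors and with DESeq2, and Pop1 was -0.0023 with all 6 libraries in one fit. Leaving out each replicate, values in MT ran from -0.75 to 0.53 for Rpp14 and from -0.73 to 0.50 for Rpp38. In the lactate comparison they ran from -0.23 to 0.24 for Pop1, from -0.035 to 0.25 for Pop4, from -0.25 to 0.66 for Pop5, from -0.15 to 0.15 for Pop7, from -0.35 to 0.0088 for Rpp14, from -0.11 to 0.56 for Rpp21, from -0.41 to 1.37 for Rpp30, from -0.52 to 0.75 for Rpp38 and from -0.53 to 0.42 for Rpp40. The causes were not tested. Leaving out MT replicate 2 or either MB replicate let 18783 to 18831 genes into the test and moved the median log2FC of all genes to between 0.68 and 1.00, and leaving out lactate replicate 2 moved that of the lactate comparison to -0.14. Whether strand was used in counting is unknown, so the shared bases of Rpph1 and Rmrp limit those genes most.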

Other observations

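Markers of other cell types were read beside the subunit genes in every group. In GAS, the 3 endothelial markers (Pecam1, Cdh5, Kdr) summed to 110.0 to 129 CPM, the 4 immune markers to 16.2 to 17.5 CPM, the 3 adipocyte markers to 19.8 to 40.7 CPM and the 3 Schwann cell markers to 11.2 to 23.7 CPM, so the GAS levels of the subunit genes are those of a mixed tissue. In control MB, the immune markers summed to 1.08 to 1.72 CPM and the endothelial markers to 0.241 to 0.245 CPM, with Cdh5 and Kdr at 0. The adipocyte markers summed to 0 there, and the Schwann cell markers to 0 to 0.241 CPM. In MT, the immune markers summed to 2.92 to 16.8 CPM and the endothelial markers to 0 to 9.53 CPM, with the higher value of each in replicate 1. The 4 fibroblast markers summed to 234 to 473 CPM in control MB, 169 to 276 CPM with lactate and 14600 to 24000 CPM in MT. The 7 genes of cycling cells summed to 1860 to 2180 CPM in control MB, 1980 to 2160 CPM with lactate and 356 to 395 CPM in MT.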
